A study of Homo sapiens with 12 samples.

Results

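The MAP kinase phosphatases of the DUSP family are described here in BT474 cells, an established HER2-positive human breast cancer line, during a lapatinib treatment. The members are the 10 genes DUSP1, DUSP2, DUSP4, DUSP5, DUSP6, DUSP7, DUSP8, DUSP9, DUSP10 and DUSP16, taken by name from the 26485 genes listed, and 9 of them passed the filter on low values, which left 13794 genes for testing. All libraries came from BT474 cells labelled as wild type, and lapatinib, which blocks the kinase activity of HER2 and EGFR, was given at 1 µM. The 4 groups of 3 libraries were Control, harvested at day 0, DTP (drug-tolerant persisters), harvested at day 9, DTEP (drug-tolerant expanding persisters), harvested at month 6, and LR (long-term resistant cells, labelled Resistant), harvested at month 9. The treatment label of the Control libraries also names lapatinib, and they were taken as untreated because Control at day 0 is their title. Libraries of 1 group are technical replicates in the authors' words and come from parallel plates of a single line, so n counts libraries, and SDs and p-values may cover only technical spread.

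MAP kinases are switched on when a threonine and a tyrosine of their activation loop are phosphorylated, and these phosphatases switch them off by removing both phosphates. DUSP1, DUSP2, DUSP4 and DUSP5 are inducible nuclear enzymes, DUSP6, DUSP7 and DUSP9 are cytoplasmic enzymes that prefer ERK, and DUSP8, DUSP10 and DUSP16 prefer JNK and p38. Several of them, DUSP6 above all, are transcribed in response to ERK activity and act as negative feedback on the pathway that HER2 feeds through RAS, RAF and MEK.

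Upstream promoter sequence of 4 members is shown because DUSP6 and DUSP10 rose in DTEP cells, DUSP8 fell there and DUSP1 passed no test. Each run is the 250 bases before the RefSeq transcription start on GRCh38.p14, read 5′ to 3′ on the minus strand, with capitals for the motif matches described after the sequences. The DUSP6 run lies at chr12:89352502-89352751, the DUSP10 run at chr1:221742090-221742339, the DUSP8 run at chr11:1572272-1572521 and the DUSP1 run at chr5:172771196-172771445. The RefSeq span of DUSP8 is chr11:1554051-1572848, so its run lies inside the gene and precedes an internal start. The other runs lie just outside the span of their genes.
DUSP6: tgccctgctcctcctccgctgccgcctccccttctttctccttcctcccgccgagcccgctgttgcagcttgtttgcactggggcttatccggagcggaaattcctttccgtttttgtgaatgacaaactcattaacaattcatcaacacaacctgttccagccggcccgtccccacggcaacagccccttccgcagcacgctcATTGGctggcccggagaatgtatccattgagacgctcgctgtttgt
DUSP10: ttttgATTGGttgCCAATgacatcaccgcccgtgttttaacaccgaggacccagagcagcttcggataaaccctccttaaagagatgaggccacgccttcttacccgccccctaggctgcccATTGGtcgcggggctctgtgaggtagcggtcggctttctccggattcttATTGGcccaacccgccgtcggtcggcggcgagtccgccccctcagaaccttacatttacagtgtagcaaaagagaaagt
DUSP8: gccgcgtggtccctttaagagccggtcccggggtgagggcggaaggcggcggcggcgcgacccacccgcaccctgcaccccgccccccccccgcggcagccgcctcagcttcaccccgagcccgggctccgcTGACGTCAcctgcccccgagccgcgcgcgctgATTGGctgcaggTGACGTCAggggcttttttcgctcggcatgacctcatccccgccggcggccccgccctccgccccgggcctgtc
DUSP1: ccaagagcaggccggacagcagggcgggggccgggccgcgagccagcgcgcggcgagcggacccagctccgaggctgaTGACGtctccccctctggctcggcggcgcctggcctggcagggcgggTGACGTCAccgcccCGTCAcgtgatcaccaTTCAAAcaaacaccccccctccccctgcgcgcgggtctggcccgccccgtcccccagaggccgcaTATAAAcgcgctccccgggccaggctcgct

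A total of 10 motifs were searched on both strands of the upstream run of 27305 RefSeq promoters, in which 8 of the 10 members had an entry and DUSP4 and DUSP5 were not matched. The CCAAT box (CCAAT) occurred once in DUSP6, once in DUSP8 and 4 times in DUSP10, and 33.0% of all promoters hold it. The core of the cyclic AMP response element (TGACG) occurred in DUSP1 and DUSP8, against 21.7% of promoters. In DUSP8 both of its palindromes (TGACGTCA) are formed by overlapping cores on opposite strands. DUSP1 also holds such a palindrome, with further cores outside it. DUSP1 alone held the cell cycle homology motif TTTGAA (13.6% of promoters) and TATAAA (11.1%). The ETS core CCGGAAG (8.82% of promoters), the AP-1 site TGANTCA (6.60%), the E2F motifs TTGGCGC (2.63%) and TTCCCGC (5.59%), the forkhead core TAAACA (11.1%) and the serum response core CCATATT (1.83%) matched none of the 8 members in this window. GC content was 57.2% in DUSP6 and 56.4% in DUSP10, near the promoter median of 58%, and 74.4% in DUSP1 and 76.8% in DUSP8, above the upper quartile of 67.6%. These matches describe letters and were not tested as sites.

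Depth was 16383363 to 25030482 assigned reads per library. Values are normalised read counts, the deposited CPM after trimmed-mean scaling. Changes are on the log2(value + 1) scale from limma, fitted over all 13794 genes with Benjamini-Hochberg adjustment. A gene passed at an adjusted p below 0.05 and was called where the absolute log2 change was also above 2. Folds are ratios of group means of the values without the added 1, so they differ from these changes. Correlations across genes ran from 0.934 to 0.982 among the DTEP libraries and from 0.913 to 0.986 between DTEP and LR libraries. DTEP replicate 3 stood apart in several members, as given below. The 7 luminal epithelial markers had reads in every library. Their summed levels were 10520 to 11263 for Control, 12878 to 15300 for DTP, 4240 to 6171 for DTEP and 3991 to 5450 for LR. ERBB2, the gene of the drug target, had the highest mean of the 7 in each group (6526, 8545, 1627 and 1774 in that order). From DTP to DTEP 5 of the 7 fell and 2 rose, GATA3 (log2 change 1.34) and EPCAM (1.19). Of 5 fibroblast markers, COL1A1 was at 48.1 to 130.4 and the other 4 never exceeded 4 reads. Of 4 blood cell markers CD3E was at 0 throughout and CD68 reached 3.54, and of 3 endothelial markers VWF reached 8.57 in Control. A lower value in bulk RNA cannot separate fewer cells with a transcript from less of it per cell.

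Between Control and DTP, the 16 proliferation transcripts all fell (summed level 3082 to 3094 in Control, 379 to 401 in DTP), and 1 phosphatase rose while 4 fell. In that comparison 25.2% of all genes tested passed as higher and 28.8% as lower, and 1.01% were called higher and 3.90% lower. The 4 that fell were DUSP4, DUSP5, DUSP6 and DUSP16, and DUSP2 rose. DUSP4 and DUSP6 also passed the log2 threshold of 2. The median change of the 9 tested members was -0.43, against -0.01 for all genes. From DTP to DTEP, 6 members rose (DUSP4, DUSP5, DUSP6, DUSP7, DUSP10 and DUSP16) and DUSP8 fell, against 35.7% of all genes higher and 32.6% lower. DUSP4, DUSP5 and DUSP6 were called higher and none lower, against 8.13% and 7.02% of all genes. The median member change was 0.44 and the median of all genes 0.08. At an absolute log2 change above 1, 4 members were called in DTP against Control, where 25.0% of all genes were, and 5 in DTEP against DTP, where 41.9% were. Both of these comparisons use the DTP libraries, so a low or high DTP level moves them in opposite directions.

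**Figure D1:**
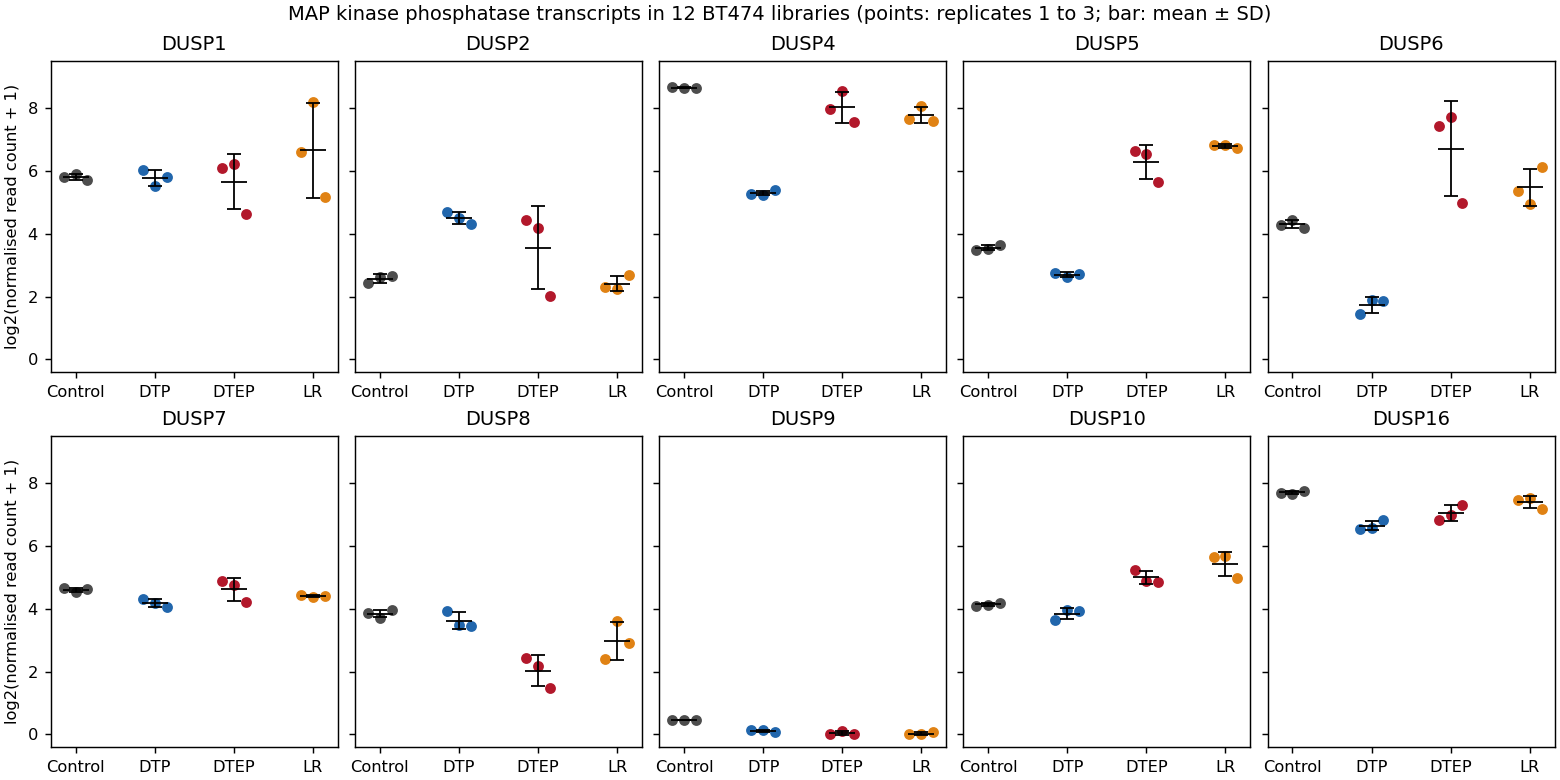
Log2(normalised read count + 1) of the 10 phosphatases in each library, with points for replicates 1 to 3 of each group and a bar for the mean ± SD. DUSP4 and DUSP6 are lowest in DTP, DUSP5 is highest in LR, DUSP2 is higher in DTP than in Control, and DTEP replicate 3 (the rightmost DTEP point) is the lowest DTEP library in 8 of the 9 tested genes.

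From DTEP to LR no member passed, against 3.04% of all genes higher and 4.31% lower, and none was called, against 0.225% and 0.457%. In that comparison 5 of the 9 had an unadjusted p below 0.05 by limma, where 34.9% of all genes did. In edgeR 1 of the 9 (DUSP2) passed the adjusted p, against 13.8% of all genes in either direction. In DESeq2 3 of the 9 (DUSP2, DUSP6 and DUSP8) passed, against 22.5%. In DTEP against Control 3 members were higher and 3 lower, near the 29.5% and 28.7% of all genes. In LR against Control DUSP5 and DUSP10 were higher and DUSP4 and DUSP8 lower, against 30.2% higher and 32.6% lower of all genes. Both of these comparisons share the Control libraries. Median member changes were 0.36 for LR against DTEP, 0.01 for DTEP against Control and -0.17 for LR against Control, where the medians of all genes were -0.07, 0.02 and -0.03.

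**Figure D2:**
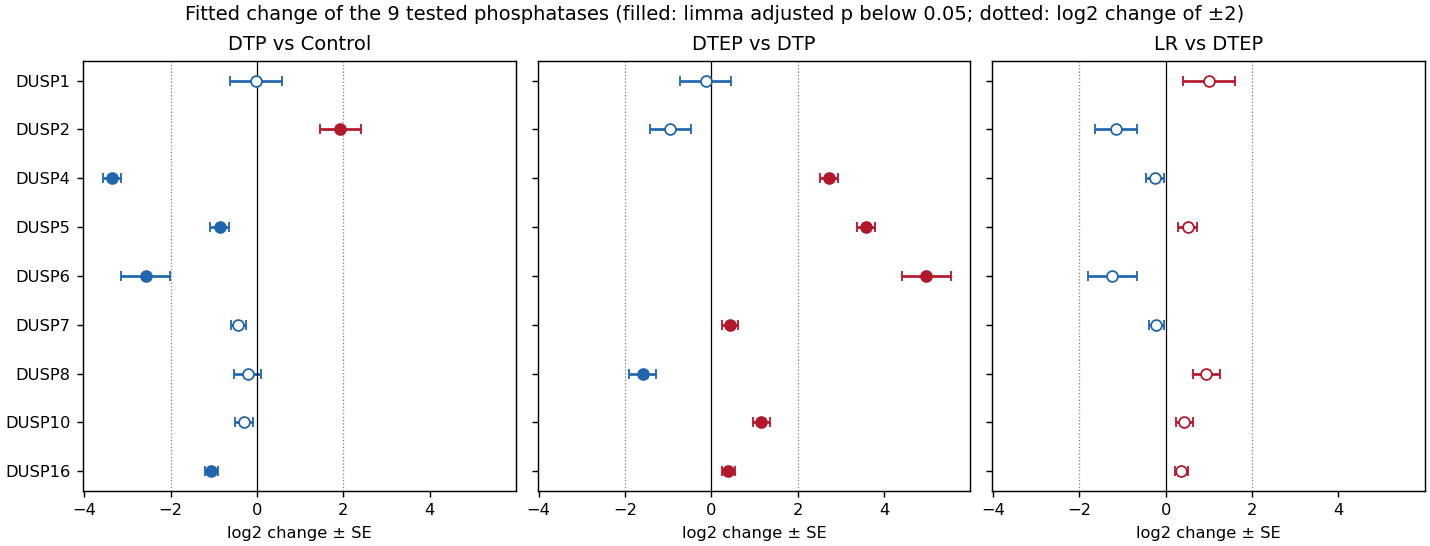
Log2 change ± SE of the 9 tested phosphatases in the 3 successive comparisons, with filled points where the limma adjusted p was below 0.05 and dotted lines at a log2 change of 2 in either direction. DUSP4, DUSP5 and DUSP6 lie beyond the line on the right in DTEP against DTP, and no point is filled in LR against DTEP.

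Among the nuclear enzymes, DUSP4 had the highest level per kb of exon of the 10 members in Control and fell furthest in DTP. DUSP4, which acts on ERK and JNK, had normalised read counts of 404, 399 and 403 in Control replicates 1 to 3, 37.7, 36.8 and 40.8 in DTP, 250, 374 and 190 in DTEP and 202, 265 and 194 in LR. All 3 DTP libraries lay below every other library, DTEP and LR overlapped, and both stayed below Control. DUSP4 was 10.5-fold lower in DTP than in Control by group means (log2 change -3.36, SE 0.21, adjusted p = 3.23e-07 by limma) and 7.06-fold higher in DTEP than in DTP (2.73, adjusted p = 3.56e-07). LR against Control was -0.88 (adjusted p = 0.00279) and DTEP against Control -0.62 (adjusted p = 0.0218), the latter lost in a fit of only the 6 libraries (adjusted p = 0.0686) and without any Control library or DTEP replicate 3 (0.0527 to 0.0652). The order was Control, DTEP, LR, DTP, of which DTEP and LR did not differ beyond their spread (-0.26, adjusted p = 0.383).

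DUSP5, a nuclear ERK-specific phosphatase, followed another course: it was low in Control, lower in DTP and rose to its highest levels in the late groups. DUSP5 had normalised read counts of 10.3, 10.5 and 11.5 in Control, 5.74, 5.13 and 5.59 in DTP, 97.5, 93.0 and 49.5 in DTEP and 113, 112 and 105 in LR. Neither of the late groups overlapped Control or DTP, and every LR library lay above every DTEP library. DUSP5 lies at chr10:110497907-110511533. The fall in DTP was 1.96-fold (log2 change -0.86, SE 0.22, adjusted p = 0.00577 by limma), the rise in DTEP over DTP was 14.6-fold (3.58, adjusted p = 6.56e-08), and LR stood 10.2-fold above Control (3.24, adjusted p = 1.27e-07). These calls were kept in all 22 alternatives, at an adjusted p of at most 0.0240. LR against DTEP did not pass (0.51, adjusted p = 0.121). Its pseudogene DUSP5P1, named after its values were seen, was at 0.0494 to 0.326 in Control and DTP, 9.66, 13.1 and 28.0 in DTEP and 29.7 to 36.9 in LR, and reads from near-identical stretches of the 2 copies could be split between them, so part of the DUSP5 value is uncertain.

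DUSP2, an inducible nuclear phosphatase first known from lymphocytes, was higher in DTP than in Control. It had normalised read counts of 4.37, 5.22 and 5.31 in Control, 24.6, 21.6 and 19.0 in DTP, 20.9, 17.2 and 3.09 in DTEP and 3.89, 3.76 and 5.38 in LR. Every DTP library was above every Control and LR library, whereas DTEP replicate 3 was below every Control and LR library. DUSP2 was 4.38-fold higher in DTP than in Control (log2 change 1.93, SE 0.48, adjusted p = 0.00491 by limma), in all 22 alternatives. DTEP against DTP was -0.95 (adjusted p = 0.0962 by limma) and depended on single libraries, with -1.39 without DTEP replicate 1 (adjusted p = 0.0180) and -0.18 without DTEP replicate 3. DTEP against Control was 0.98 (adjusted p = 0.0952) and passed without DTEP replicate 3 (1.74, adjusted p = 1.12e-05), in edgeR (1.47, adjusted p = 0.0230) and in DESeq2 (1.39, adjusted p = 0.00910). LR against DTEP (-1.15) did not pass, apart from edgeR, DESeq2 and the fit without DTEP replicate 3.

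DUSP1, an immediate-early phosphatase of p38, JNK and ERK, passed no comparison. It had normalised read counts of 55.4, 59.1 and 51.1 in Control, 63.8, 44.7 and 55.3 in DTP, 67.8, 73.0 and 23.9 in DTEP and 97.0, 291 and 35.1 in LR. The 3 LR libraries spanned a wider range than the other 9 libraries together. LR against DTEP was 1.01 on the log2 scale, and passed only without LR replicate 3 (1.75, adjusted p = 0.0498 by limma), as LR against Control did in that fit (1.59, adjusted p = 0.0148) and in DESeq2 (1.34, adjusted p = 0.0298).

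DUSP6, the cytoplasmic phosphatase of ERK, showed the largest rise from DTP to DTEP of the 9 tested members. DUSP6 had normalised read counts of 18.4, 20.8 and 17.2 in Control, 1.72, 2.67 and 2.65 in DTP, 170, 211 and 30.5 in DTEP and 39.7, 30.2 and 68.2 in LR. DTP lay below every other library, and DTEP replicate 3 lay with the LR libraries while the other 2 DTEP libraries were above all others. DUSP6 was 8.02-fold lower in DTP than in Control by group means (log2 change -2.57, SE 0.56, adjusted p = 0.00231 by limma). In DTEP it was 58.5-fold higher than in DTP (4.98, adjusted p = 8.41e-06), with the DTEP mean raised by replicates 1 and 2. Both changes passed in all 22 alternatives. DTEP was above Control (2.40, adjusted p = 0.00290). Every LR library lay above every Control library. LR against Control was 1.17 (adjusted p = 0.0876 by limma) and passed in 4 of the 22 alternatives. These were limma on only the 6 libraries compared (adjusted p = 0.00851) or without DTEP replicate 3 (0.00147), edgeR (0.0495) and DESeq2 (0.0226). DUSP6 lies at chr12:89347235-89352501, where GENCODE annotates a long noncoding RNA that overlaps its exons on the opposite strand and is not analysed here, and the counting ignores strand, so their reads cannot be told apart.

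The order of DUSP6 was DTEP, LR, Control, DTP, and the step from DTEP to LR (-1.23, adjusted p = 0.141) did not pass by limma. In DESeq2 with all 12 libraries it passed at -1.53 (adjusted p = 0.0198). Without DTEP replicate 3, which left 2 DTEP libraries, it passed at -2.10 (adjusted p = 0.000222 by limma), and with it DUSP2 (-1.91, adjusted p = 4.45e-05), DUSP4 (-0.49, adjusted p = 0.0376), DUSP7 (-0.42, adjusted p = 0.0239) and, in the other direction, DUSP16 (0.50, adjusted p = 0.00911). That is 1 member higher and 4 lower, against 19.3% and 28.1% of all genes in the same fit. The proliferation list, of which 11 of 16 fell from DTEP to LR, had a summed level of 2506 in DTEP replicate 3 against 3867 and 4063 in DTEP replicates 1 and 2, and of 832 to 1933 in LR. The ERK-induced list was at 943 in DTEP replicate 3 against 1893 and 1745. The part of these levels in the phosphatase values was not tested. Without LR replicate 3, DUSP10 also rose (0.65, adjusted p = 0.0463) with DUSP1, 2 of the 9 against 8.37% of all genes.

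**Figure D3:**
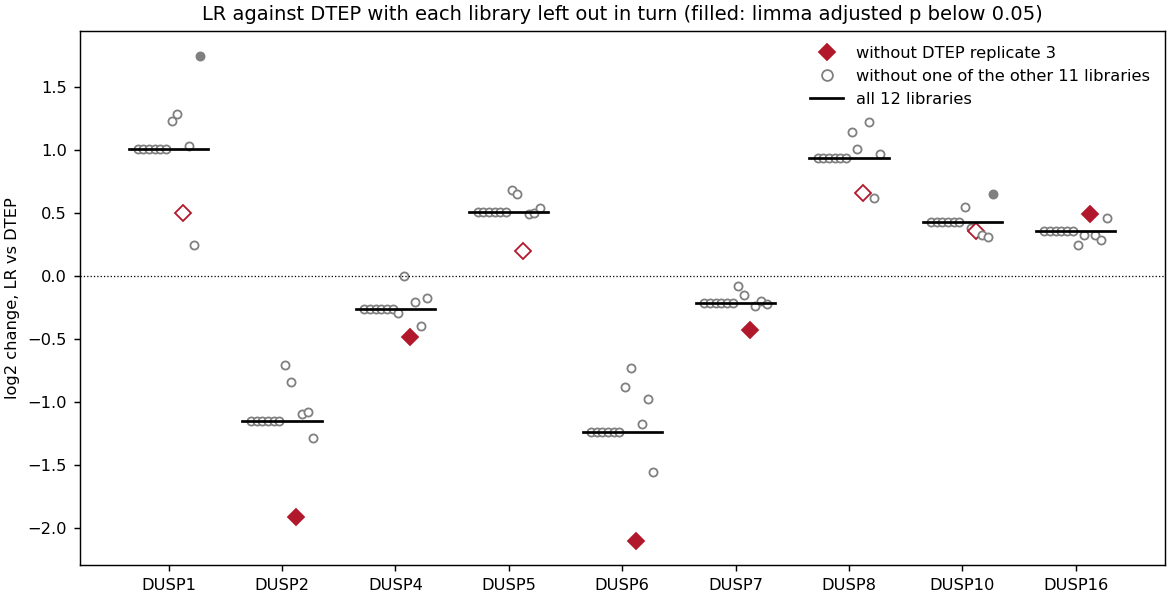
Log2 change of LR against DTEP for the 9 tested phosphatases with each library left out in turn, with diamonds for the fit without DTEP replicate 3, circles for the other 11 fits, a line for all 12 libraries and filled symbols for a limma adjusted p below 0.05. The 5 filled diamonds are DUSP2, DUSP4, DUSP6, DUSP7 and DUSP16, and the 2 filled circles are DUSP1 and DUSP10 without LR replicate 3.

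DUSP7, an ERK phosphatase close to DUSP6, had normalised read counts of 24.1, 22.3 and 23.8 in Control, 18.9, 17.1 and 15.5 in DTP, 28.8, 26.1 and 17.5 in DTEP and 20.7, 19.6 and 20.3 in LR. Its DTEP and DTP libraries overlapped, and the rise between them (0.44, SE 0.18, adjusted p = 0.0474 by limma) was kept in 7 of 22 alternatives. DUSP9 was not tested, because it had 8, 7 and 8 reads in Control, 2, 2 and 1 in DTP, 0, 2 and 0 in DTEP and 0, 0 and 1 in LR. Every Control library held more DUSP9 reads than every later library. In the alternative without the filter, DUSP9 passed as lower in DTP, DTEP and LR against Control, on these few reads.

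The phosphatases that prefer JNK and p38 did not move as a group. DUSP16, a long phosphatase that binds JNK, had normalised read counts of 205, 203 and 216 in Control, 92.1, 94.9 and 111 in DTP, 113, 125 and 159 in DTEP and 176, 185 and 145 in LR. It was 2.09-fold lower in DTP than in Control (log2 change -1.06, SE 0.15, adjusted p = 0.000123 by limma), with no overlap. The rise to DTEP (0.40, adjusted p = 0.0317) was lost in 6 of 22 alternatives. DTEP remained below Control (-0.66, adjusted p = 0.00222), and LR against Control was -0.31 (adjusted p = 0.0921). Every LR library lay below every Control library. That comparison passed only in limma on the 6 libraries compared (adjusted p = 0.0342) and without DTEP replicate 3 (0.0343).

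DUSP10, which acts mainly on JNK and p38, had normalised read counts of 16.0, 16.6 and 17.4 in Control, 11.4, 14.5 and 14.4 in DTP, 36.6, 28.9 and 28.1 in DTEP and 48.7, 49.8 and 30.8 in LR. Both late groups lay above Control and DTP without overlap. DUSP10 rose 2.32-fold from DTP to DTEP (log2 change 1.16, SE 0.20, adjusted p = 0.000258 by limma) and LR was 2.59-fold above Control (1.29, adjusted p = 0.000131), in all 22 alternatives. Over the 12 libraries its level correlated with that of DUSP5 at r = 0.953 on the log2 scale, the highest value of any pair of members, a description of libraries that share their groups.

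DUSP8, a phosphatase of JNK and p38 known best from brain and heart, was the member that fell from DTP to DTEP. It had normalised read counts of 13.5, 12.2 and 14.5 in Control, 14.2, 10.3 and 9.96 in DTP, 4.45, 3.50 and 1.80 in DTEP and 4.27, 11.2 and 6.49 in LR. DTEP lay below Control and DTP without overlap, and LR overlapped both DTEP and DTP. DUSP8 was 3.54-fold lower in DTEP than in DTP (log2 change -1.59, SE 0.31, adjusted p = 0.000655 by limma) and 4.12-fold lower than in Control (-1.81, adjusted p = 0.000338), in all 22 alternatives. The rise from DTEP to LR (0.94, adjusted p = 0.0717 by limma) passed only in DESeq2 (1.22, adjusted p = 0.0150). LR against Control (-0.87, adjusted p = 0.0279) was lost in edgeR (0.0549) and without Control replicate 1 or 3 or LR replicate 1 or 3 (0.0643 to 0.128).

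Levels of different genes were compared per kb of exon. On that scale the 10 members summed to 136 ± 0.841 in the Control libraries, 70.5 ± 5.45 in the DTP, 173 ± 62.4 in the DTEP and 202 ± 73.9 in the LR libraries (SD, n = 3). DUSP4 made up 40.5% ± 0.486 of the sum in Control and 7.51% ± 0.560 in DTP, where DUSP1 took 38.3% ± 3.83. In DTEP the pool was spread over DUSP4 (22.1% ± 4.10), DUSP5 (18.4% ± 1.59) and DUSP6 (18.3% ± 9.25), and in LR over DUSP1 (30.0% ± 19.5), DUSP5 (23.2% ± 6.95) and DUSP4 (15.7% ± 2.96). The per-kb ratio of DUSP4 to DUSP5 went from 13.0 ± 0.775 in Control through 2.44 ± 0.135 in DTP and 1.21 ± 0.277 in DTEP to 0.698 ± 0.111 in LR, with no overlap between any of the 4 groups. The ratio of DUSP4 to DUSP6 was 11.7, 10.2 and 12.4 in the Control libraries, 11.6, 7.32 and 8.17 in the DTP, 0.778, 0.943 and 3.30 in the DTEP and 2.70, 4.67 and 1.51 in the LR libraries.

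**Figure D4:**
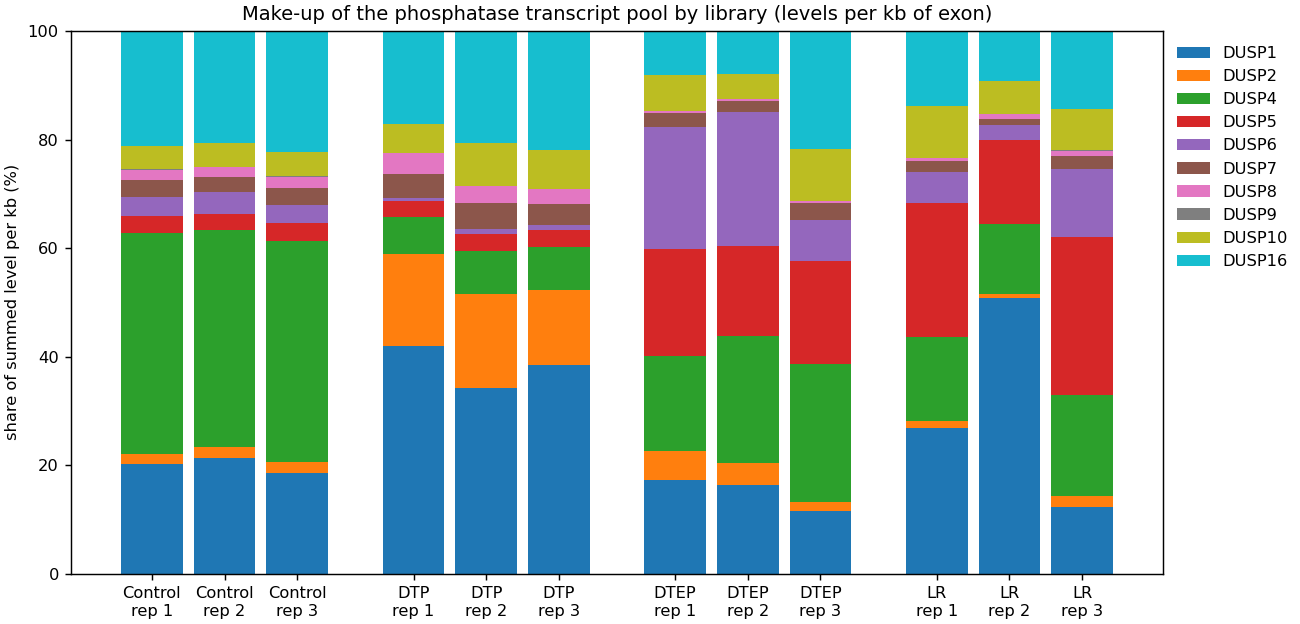
Share in percent of the summed level per kb of exon held by each of the 10 phosphatases in each of the 12 libraries, stacked to 100. DUSP4 is the widest band in Control, DUSP1 and DUSP2 are wider in DTP, DUSP5 is wider in all DTEP and LR libraries than in Control, and DUSP6 is wider in DTEP but at 2.75% in LR replicate 2, where DUSP1 is at 50.9%.

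Other transcripts that ERK is known to induce were read beside the members. Of 20 listed genes 17 were tested. All list counts stand beside a background of 25.2% of all genes higher and 28.8% lower for Control to DTP, 35.7% higher and 32.6% lower for DTP to DTEP, and 3.04% higher and 4.31% lower for DTEP to LR. In DTP 6 fell, of which SPRED1 (-3.25), ETV5 (-3.00) and ETV4 (-2.96) fell furthest, and 3 rose, EPHA4 (3.08), MYC (1.48) and SPRED3 (0.57). From DTP to DTEP 10 rose, led by the ERK pathway inhibitors SPRY4 (6.29), SPRED1 (5.61) and SPRED2 (4.02), and SPRED3 (-1.65), MYC (-1.36) and EPHA4 (-1.30) fell. From DTEP to LR none of the 17 passed. The list's medians were -0.28, 1.26 and -0.58. SPRY4 had group means of 7.60, 0.334, 114 and 64.1 in the order Control, DTP, DTEP, LR, whereas ETV5 was at 8.88, 0.233, 2.23 and 1.38, and its DTEP level was below Control (-1.75, adjusted p = 0.00882 by limma).

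**Figure D5:**
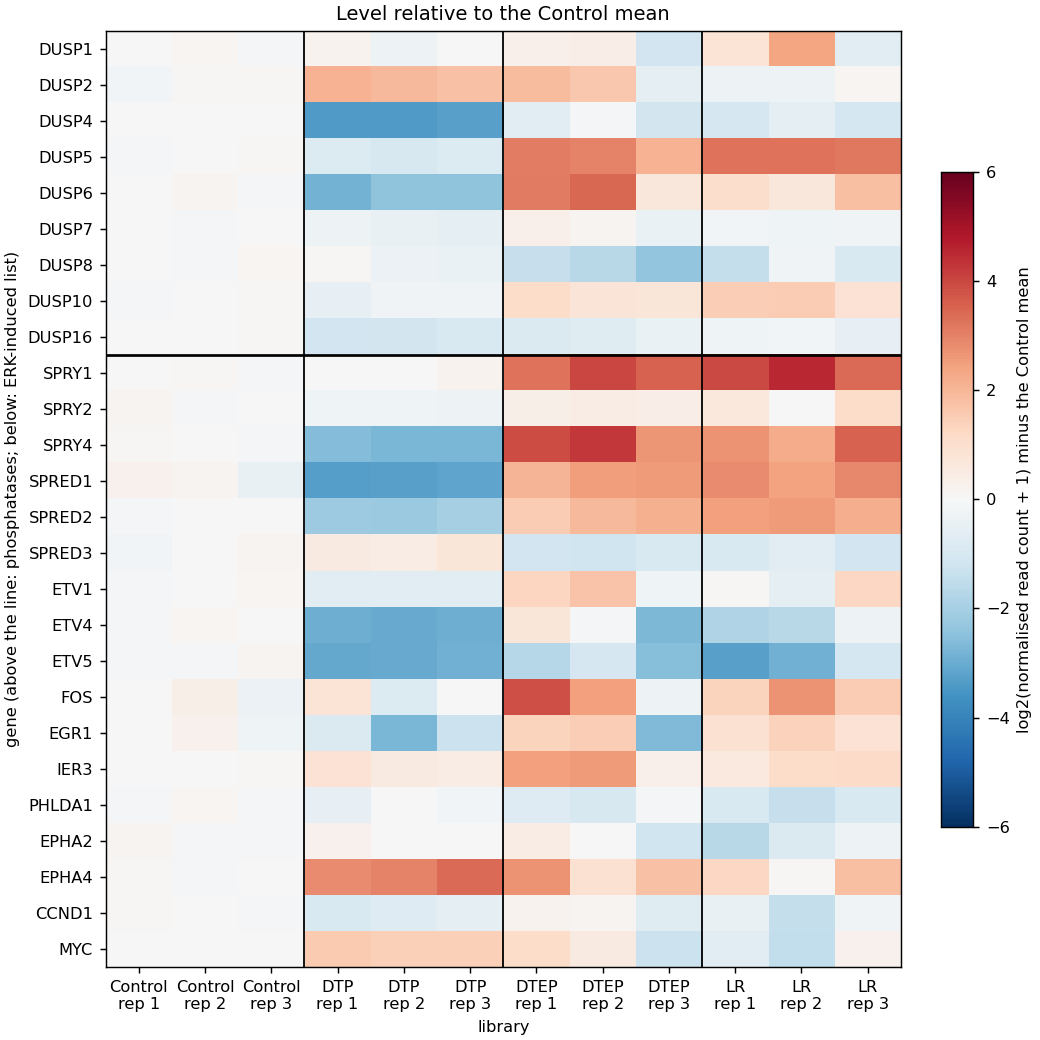
Log2(normalised read count + 1) minus the Control mean for the 9 tested phosphatases (above the line) and the 17 tested ERK-induced transcripts (below), in 12 libraries. DUSP4, DUSP6, SPRY4, SPRED1, SPRED2, ETV4 and ETV5 are low in DTP. DUSP5, DUSP6, SPRY1, SPRY4, SPRED1 and SPRED2 are high in DTEP and LR, whereas ETV5 stays below Control there.

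The kinases these enzymes act on were measured as well. Of 14 MAP kinase genes, 2 rose and 7 fell in DTP, 5 rose and 5 fell from DTP to DTEP, and 0 of 14 passed from DTEP to LR, with medians of -0.37, 0.17 and 0.01. From DTP to DTEP 35.7% of all genes rose and 32.6% fell, so these counts are near the background. MAPK6, an atypical MAP kinase gene, fell in DTP (-1.78) and rose in DTEP (1.52). The genes of JNK and p38 kinases went both ways in DTEP: MAPK10 (JNK3, -3.54), MAPK12 (p38, -2.61) and MAPK11 (p38, -1.64) fell, and MAPK9 (JNK2, 0.87) rose, as did the p38 gene MAPK13 (0.48), named after its values were seen. Of 20 genes for MAP kinase kinases, RAF and RAS, 3 rose and 6 fell in DTP and 10 rose and 3 fell in DTEP (medians -0.13 and 0.52), with GRB2 (2.66) and HRAS (2.58) highest. HRAS fell from DTEP to LR (-1.08, adjusted p = 0.0312 by limma). Of 11 genes of AP-1 subunits and other immediate early factors, ATF3 (1.86) and JUND (1.08) rose in DTP. In DTEP KLF2 (2.40) and FOSB (1.49) rose and FOSL2 (-1.54), JUND (-0.62) and ATF3 (-0.60) fell, and none of the 11 passed in LR against DTEP.

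Phosphatases outside the 10 members did not share one course. Of 16 other DUSP and STYX genes 11 were tested, of which 5 rose and 1 fell in DTP, 3 rose and 5 fell in DTEP and STYXL1 fell from DTEP to LR (-0.60). DUSP14 had group means of 182, 373, 59.8 and 51.6 in the order Control, DTP, DTEP, LR (DTEP against DTP -2.73), and DUSP23 went from 0.488 in DTP to 23.4 in DTEP (4.01). Of 8 other MAP kinase phosphatases 5 were tested, and PPM1B (-0.73) and PPM1D (-0.55) fell in DTP, PPM1B (0.94) and PPM1A (0.77) rose and PPM1D (-0.82) and PPP2CB (-0.80) fell in DTEP, and none passed in LR against DTEP. The 3 other phosphatases the study followed all fell in DTP and rose in DTEP, with CDC25A at -3.63 and 3.69, CDC25C at -2.78 and 4.26 and SYNJ1 at -2.48 and 2.80, and CDC25C fell from DTEP to LR (-1.24, adjusted p = 0.0407 by limma). That list was chosen by the study on these libraries and is not independent evidence of its direction. Of the 3 receptors EGFR, ERBB2 and ERBB3, EGFR fell in DTP (-2.36), and EGFR (-1.42) and ERBB2 (-2.42) fell in DTEP.

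The genes whose levels were most like DUSP6 over the 12 libraries, by Pearson's r on the log2 scale among the genes tested, were HAT1 (0.990), UCHL5 (0.988), MCMBP (0.981), ASPH (0.980) and GPR153 (0.980). Those most like DUSP4 were FASN (0.979), MRPL19 (0.978), ANLN (0.978), EIF4EBP2 (0.976) and LARS2 (0.976). HAT1, a histone acetyltransferase, had group means of 90.6, 49.2, 169 and 119 in the order Control, DTP, DTEP, LR, and FASN, the fatty acid synthase, had 1135, 206, 882 and 665. The points share their 4 groups, and the r describes those libraries.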

How the data were processed

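mRNA of 12 BT474 libraries was sequenced by the authors from stranded libraries, aligned to hg38 with Rsubread and assigned to RefSeq genes with default settings, which ignore strand. The submitters' processing notes also name bcl2fastq and edgeR. The deposited signal is a normalised value per gene. All 199680 values above 0 were whole multiples of 1 read within 1e-06, and the deposited signal equalled trimmed-mean CPM recomputed with edgeR 4.0.16 in 12 of 12 libraries. Depth was 16383363 to 25030482 reads, and 1016 rows without a symbol were listed. Groups and replicate numbers came from the sample titles.

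Tests used limma 3.58.1 in R 4.3.3 on log2(value + 1), with a trend, in 1 fit of all 12 libraries, for genes that reached a value of 1 in 3 or more libraries. Tests were two-sided and adjusted by Benjamini-Hochberg over all genes of a comparison. Adding 1 understates the change of low genes. Scripts were tested on simulated reads. The members and the gene lists were chosen with earlier results of these data known. The genes named are the members, the 3 largest and 3 smallest passing changes of a list at most, the study's phosphatases and ERBB receptors, and the 5 genes most correlated with DUSP6 and with DUSP4. Levels per kb used the union of GENCODE exons, and promoters came from RefSeq on GRCh38.p14. The alternatives were pseudocounts of 0.1 and 0.5, no filter, a filter at a mean of 5, no trend, only the 6 libraries compared, median-of-ratios scaling, the replicate number as a block, edgeR, DESeq2 1.42.0, an absolute log2 change above 1, and each library left out.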

Additional observations from a re-analysis of the deposited data

How the results depend on the processing

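Of 990 values of single members under alternatives, 920 kept their direction and their side of the threshold, 26 passed only under the alternative, 31 no longer passed and 13 changed sign. Some alternatives leave the estimated change as it was, so its direction was fixed in advance and only the adjusted p could move. These are the filter settings, no trend, only the 6 libraries compared, the replicate block, and leaving out a library of a group not compared. The number of members passing in LR against DTEP, 0 of 9 by limma, was 1 in edgeR and 3 in DESeq2, and 0 to 5 when a library was left out, with 5 without DTEP replicate 3 and 2 without LR replicate 3. The number called there was 0 to 1 when a library was left out. With an absolute log2 change above 1, the members called were 4 instead of 2 in DTP against Control, where 25.0% of all genes were called. In DTEP against DTP they were 5 instead of 3, where 41.9% of all genes were. In these settings the cause was not tested.

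The 13 sign changes were of changes that did not pass, and none passed after it. For DUSP1, DTP against Control was 0.0191 with median-of-ratios scaling, 0.0474 in DESeq2 and -0.15 to 0.11 when a library was left out. DTEP against DTP was 0.00942 in edgeR and -0.41 to 0.37 when a library was left out, and DTEP against Control -0.44 to 0.35. DUSP4 in LR against DTEP was -0.49 to 0.00322 when a library was left out. DUSP7 in DTEP against Control was -0.0437 with median-of-ratios scaling, -0.0188 in DESeq2 and -0.12 to 0.22 when a library was left out.

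Rescaling by trimmed-mean factors gave the deposited values themselves and no separate result. With the replicate block the members passing were 5, 7, 0, 6 and 4 in DTP against Control, DTEP against DTP, LR against DTEP, DTEP against Control and LR against Control, as without it. Correlations of the deviations of same-numbered libraries ran from -0.44 to 0.36, over 0.1 in 2 of 18 pairs, so the numbers were not taken as pairs. Depth limits DUSP9, whose libraries held at most 8 reads.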
